A study of Mustela putorius furo and Mus musculus with 4 samples.

Results

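The ligands and receptors of the classical axon guidance systems were compared between cultured ferret and mouse astrocytes. The genes were taken by a rule on symbols, chosen with earlier results of these data known. It covered the Eph receptors and ephrins, the semaphorins, plexins and neuropilins, the Slits and Robos, and the netrins with the Unc5 receptors and Dcc. Of 13373 gene symbols shared by both species, 65 belonged to these families, 33 receptors and 32 ligands. In the mouse values 69 symbols fitted the rule, and Efna2, Efna3, Ntn1 and Plxnc1 had no match in the ferret values used here.

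The ferret cells came from the cerebral cortex of pups of postnatal day 1 and the ICR mouse cells from pups of postnatal day 1 to 3, with 2 libraries of each. Both were primary cultures grown as mixed glia with serum for 14 days, shaken, replated and kept without serum for the last days before RNA was taken. Cells of several mouse pups shared a flask, whereas cells of a ferret pup were spread over several flasks. Expression was given as FPKM, the fragment count of a gene divided by its exon length and by the mapped fragments of the library. Species, gene annotation and culture cannot be told apart in this design. In these bulk libraries, fewer cells of a type and less RNA per cell cannot be told apart either.

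Guidance cues steer growing axons and migrating cells by attraction or repulsion. Ephrins are held on the cell surface and signal in both directions when they meet an Eph receptor tyrosine kinase on a neighbouring cell. Class 3 semaphorins are secreted and act through neuropilins joined to plexins, while the membrane-bound classes bind plexins directly. Slits repel cells that carry Robo receptors. Netrins attract through Dcc and repel through Unc5 receptors. Astrocytes use several of these systems to shape synapses, vessels and the boundaries of their own territories.

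Of 11 astrocyte markers, 7 were called lower and 1 higher in the ferret, and genes of other cells differed too. Gfap, the astrocyte filament protein, stood at 1501.6 ± 29.1 FPKM in ferret astrocytes and at 1487.1 ± 82.7 FPKM in mouse astrocytes (SD, n = 2 each). Slc1a2, the glutamate transporter GLT-1, stood at 0.155 ± 0.0319 in the ferret and at 49.4 ± 3.33 in the mouse (SD, n = 2 each). The marker called higher was S100b, at 247.4 and 243.8 FPKM in the ferret and 57.3 and 63.1 in the mouse. All 14 microglial markers were called lower in the ferret, with a summed level of 7.18 to 7.57 FPKM against 830.5 to 857.6, and Cx3cr1 was listed at 0 in both ferret libraries. Of 11 meningeal fibroblast markers, 10 were lower (summed 114.2 to 129.0 against 1580.9 to 1603.3 FPKM). Of 6 endothelial markers, 3 were lower (list sum 0.279 to 0.288 against 27.3 to 28.0 FPKM), with Pecam1, Cdh5 and Tek listed at 0 in both ferret libraries and Cldn5 at 0 in both mouse libraries. Most of the mouse sum came from Cdh5 (22.0 and 22.5 FPKM), while mouse Pecam1 stood at 0.0407 and 0.0312 FPKM. Of 8 oligodendrocyte lineage markers, Sox10 and Mbp were called higher in the ferret. The list sum was 145.1 to 167.2 against 62.5 to 62.8 FPKM, with 79.9 and 92.0 against 45.6 and 47.7 from Cnp. Olig2 (4.92 and 5.18 against 9.62 and 9.80 FPKM) and Cspg4 had lower ferret values without a call. The remaining markers of this list had higher ones, also without a call. Of 5 neuronal markers, Syt1 (5.11 and 4.94 against 1.12 and 1.25 FPKM) and Nefl (4.42 and 5.68 against 0.137 and 0.0917) were called higher. The neuronal list sum was 34.4 to 34.5 against 21.5 to 23.4 FPKM, with 24.1 and 23.1 against 19.8 and 21.5 from Gap43, which was not called. Snap25 had higher ferret values and Rbfox3, near 0, lower ones, without a call. The part of these other cells in the differences below was not tested.

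Most of the guidance genes stood at a lower FPKM in ferret astrocytes, while a smaller number stood clearly higher. The log2(FPKM + 1) scale understates differences of genes with low FPKM. A gene was called when its adjusted p was under 0.05 in limma and its difference in log2(FPKM + 1) exceeded 1 in either direction. By this rule 10 of the 65 members (15.4%) stood higher in ferret astrocytes, 22 (33.8%) stood lower, and 33 were not called. Without Epha5, whose mouse value is in doubt, 9 stood higher. Over all 12879 genes tested the same rule called 10.4% higher and 23.8% lower. The median difference of the 65 genes was -0.52, against -0.15 over all genes. By the adjusted p alone, 58 members (89.2%) differed, as did 79.5% of all genes. Every ferret value exceeded every mouse value for 19 members (29.2%) and lay below them for 42 (64.6%), with 4 overlapping, where 34.5% and 54.9% of all tested genes were separated in this way.

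**Figure D1:**
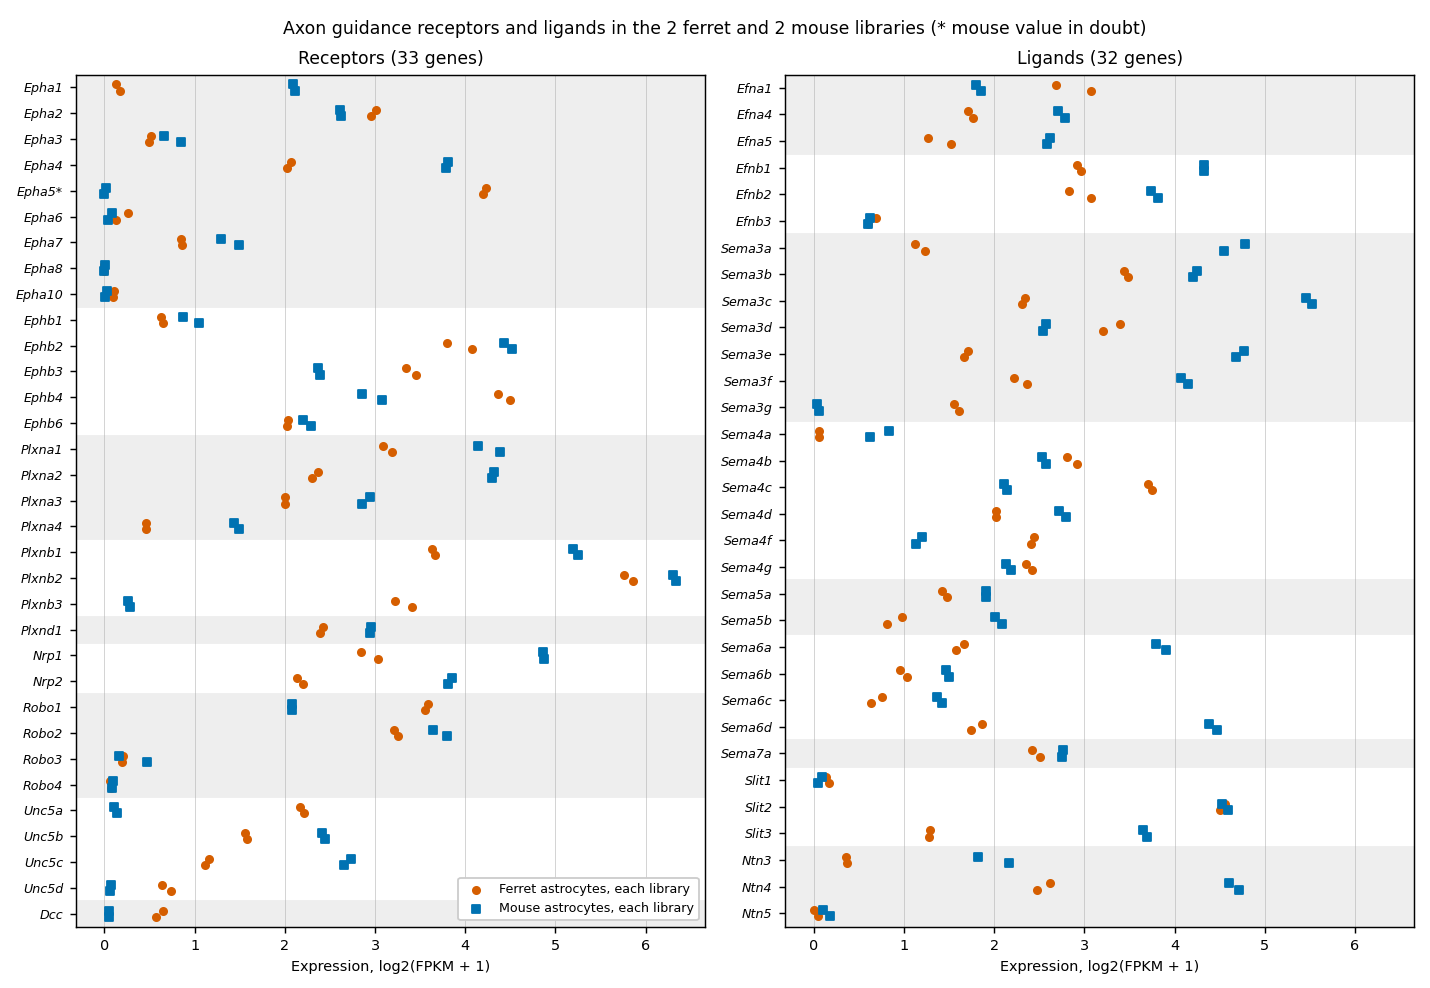
Expression of the 33 receptors and 32 ligands, as log2(FPKM + 1), in each of the 2 ferret libraries (circles) and 2 mouse libraries (squares), with shading that separates families. The duplicates sit close to each other, the class 3 semaphorins Sema3a, Sema3c and Sema3e and the neuropilins lie far to the right in mouse astrocytes, and Plxnb3 and Unc5a lie far to the right in ferret astrocytes. The mouse value of Epha5 is in doubt, and whether other very low mouse values are affected was not tested.

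The scale between the species bears on these calls. Added over all shared symbols, FPKM came to 227391.2 and 236543.4 in the ferret and to 300465.1 and 308121.5 in the mouse. With all libraries rescaled to the mean of these sums, the median difference over all genes moved from -0.15 to 0. The median of the 65 members moved from -0.52 to -0.2. Then 11 members (16.9%) were higher and 17 (26.2%) lower, against 15.3% and 17.2% of all genes. After quantile normalization the counts were 11 (16.9%) and 16 (24.6%), against 16.4% and 16.2% of all genes. The member median was then -0.14, against 0.02 over all genes. Where a direction or a call of a named gene turned on the scaling, the rescaled difference is given beside it. Relations between genes within a library, such as which member of a family is highest, are not touched by scaling, although they still rest on the gene models of each species.

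**Figure D2:**
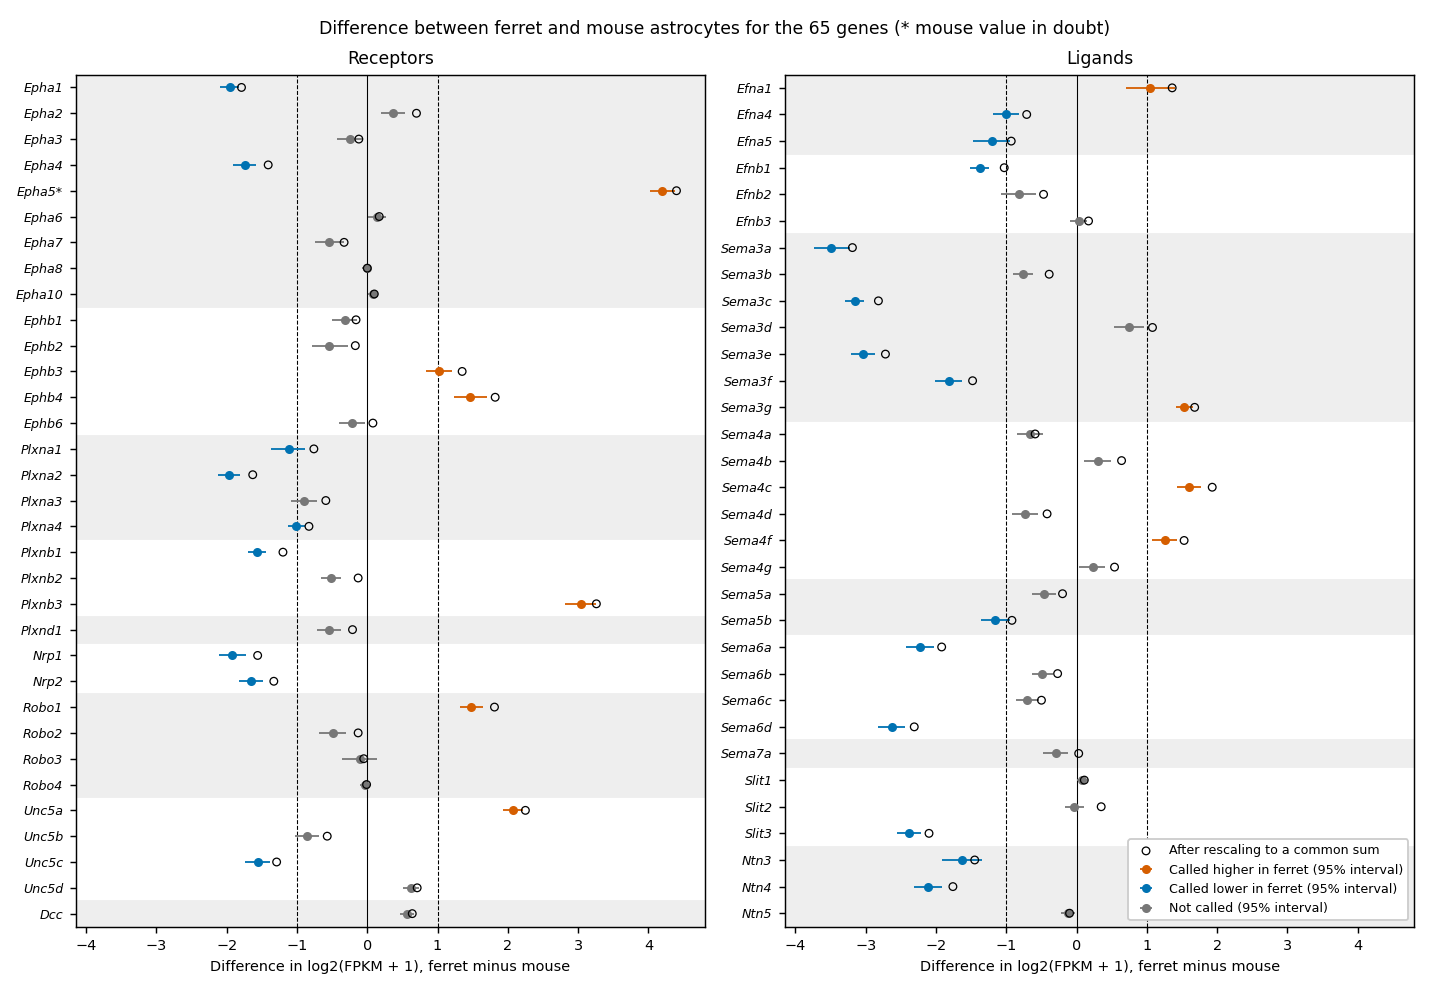
Difference in log2(FPKM + 1), ferret minus mouse, for the 65 genes, with 95% intervals from limma (filled points) and the difference after rescaling to a common sum (open circles). Dashed lines mark the limit of 1 required for a call. Called genes lie on the left for neuropilins and class 6 semaphorins and on both sides for class 3 semaphorins, and open circles lie mostly to the right of the filled points. The mouse value of Epha5 is in doubt.

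Among the ligands, the secreted class 3 semaphorins had the largest gap in summed FPKM, although the ratio between the species was larger for class 6 semaphorins and netrins. Their 7 genes summed to 32.5 and 32.2 FPKM in the ferret and to 134.6 and 131.2 in the mouse, 4.11 times as much in the mouse. Sema3c, Sema3e, Sema3a and Sema3f were called lower in ferret astrocytes, Sema3g was called higher, and Sema3b and Sema3d were not called. After rescaling to a common sum Sema3d was called higher as well, with a difference of 1.08.

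Sema3c, which acts through both neuropilins, had 4.07 and 3.96 FPKM in the ferret and 43.0 and 45.0 in the mouse. The groups did not overlap, and the mean was 11 times higher in the mouse (difference in log2(FPKM + 1) -3.16, standard error 0.055, adjusted p = 8.96e-07 by limma). Sema3a, the founding axon repellent of the class and a ligand of Nrp1, had 1.17 and 1.35 FPKM in the ferret and 26.5 and 22.4 in the mouse. It fell by 3.49 on the log2(FPKM + 1) scale in ferret astrocytes, the largest drop of any member (standard error 0.101, adjusted p = 2.43e-06). Sema3e, which can bind Plxnd1 without a neuropilin, had 2.28 and 2.17 FPKM in the ferret and 26.3 and 24.7 in the mouse (difference -3.04). Sema3f, a ligand of Nrp2, had 3.67 and 4.14 FPKM in the ferret and 15.8 and 16.8 in the mouse (difference -1.82). All 4 genes were separated by far more than the gap between duplicates.

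The other class 3 genes did not share this direction and size. Sema3b stood at 9.85 and 10.2 FPKM in the ferret and at 18 and 17.4 in the mouse, a difference of -0.76 that was below the limit for a call. Sema3d had 9.50 and 8.25 FPKM in the ferret and 4.96 and 4.80 in the mouse, so that the ferret values lay above the mouse values (difference 0.74, adjusted p = 0.000462 by limma). Sema3g, low in both species, had 1.93 and 2.06 FPKM in the ferret and 0.027 and 0.045 in the mouse (difference 1.53, adjusted p = 2.95e-06 by limma). Whether its very low mouse FPKM is a failed estimate, as that of Epha5 may be, was not tested. The order of the class thus differed between the species. In the ferret Sema3b and Sema3d were highest, with 30.4% and 31.9% of the summed class 3 FPKM in Sema3b and 29.3% and 25.6% in Sema3d. In the mouse Sema3c was highest, with 31.9% and 34.3%, and Sema3d held 3.68% and 3.66%. The leading pair of the ferret stood close in replicate 1, at 9.85 and 9.50 FPKM.

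Of these genes, Sema3d, Sema3a, Sema3e and Sema3c lie on mouse chromosome 5 of GRCm38, all on the plus strand, with Sema3c farther from the others. Sema3d spans 12383385 to 12588948, Sema3a 13125414 to 13602565, Sema3e 14025276 to 14256689 and Sema3c 17574281 to 17730268. Sema3b (107597674 to 107609229) and Sema3f (107681500 to 107710475) lie near each other on the minus strand of chromosome 9. The positions of these genes in the ferret were not examined. On mouse chromosome 5 the genes differed in direction. Sema3a, Sema3e and Sema3c were called lower in ferret astrocytes, while Sema3d had higher values there without a call. On chromosome 9 both genes had lower ferret values, and only Sema3f was called.

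Both neuropilins, the co-receptors of most class 3 semaphorins, were called lower in ferret astrocytes. Nrp1, a co-receptor for Sema3a and for VEGF, had 6.19 and 7.18 FPKM in the ferret and 28.0 and 28.2 in the mouse. Nrp2 had 3.38 and 3.60 FPKM against 13.4 and 13.0. In the ferret they fell by 1.92 and 1.66 on the log2(FPKM + 1) scale (adjusted p = 6.29e-06 and 6.57e-06 by limma), and Nrp1 stood above Nrp2 in all 4 libraries. Although both the ligands and the neuropilins were about 4 times lower in the ferret, their ratio within a library overlapped between the species. Summed class 3 semaphorins over summed neuropilins gave 3.39 and 2.98 in the ferret and 3.25 and 3.19 in the mouse. The ratios within libraries given here and below were picked after the values were seen. The summed FPKM of the microglial, meningeal fibroblast and endothelial lists was also lower in the ferret, as given above. Most of the mouse endothelial sum came from Cdh5 alone. The astrocyte list was lower too, at 4704.4 and 4897.6 against 10272.6 and 11053.7 FPKM, while the oligodendrocyte lineage and neuronal sums were higher. The part of any of these cells in the neuropilin values was not tested.

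The plexin-A genes, which signal for neuropilin-bound and class 6 semaphorins, summed to 15.0 and 15.4 FPKM in the ferret and 44.1 and 46.5 in the mouse. Plxna2 had 4.17 and 3.93 FPKM against 19.0 and 18.6 and was called lower with a difference of -1.97 (adjusted p = 3.02e-06 by limma). Plxna1, at 7.49 and 8.11 FPKM against 16.6 and 19.9, was also called lower. Plxna3, at 3 and 2.99 against 6.72 and 6.23 FPKM, missed the limit with a difference of -0.90. Plxna4, the lowest of the family, had 0.372 and 0.373 FPKM in the ferret and 1.71 and 1.81 in the mouse and was called lower at -1.01. Of the plexin-A calls only that of Plxna2 remained after rescaling, where Plxna1 stood at -0.76 and Plxna4 at -0.83. Without mouse replicate 2, Plxna1 and Plxna4 also fell below the limit, with differences that rounded to -1 and -0.98.

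The plexin-B genes split in direction. Plxnb2, a receptor of class 4 semaphorins, was the most expressed of all 65 genes in ferret and in mouse astrocytes. It had 53.0 and 56.9 FPKM in the ferret and 78.1 and 80.1 in the mouse, which did not overlap but differed by less than the limit (difference -0.52, 95% interval -0.66 to -0.38), and after rescaling the difference was -0.13. Plxnb1, the receptor of Sema4d, had 11.4 and 11.7 FPKM in the ferret and 35.7 and 37.1 in the mouse and was called lower (difference -1.57, adjusted p = 3.28e-06 by limma). Plxnb3 went the other way, with 8.30 and 9.62 FPKM in the ferret and 0.197 and 0.219 in the mouse. Its difference, 3.04 with a standard error of 0.0885 (limma, adjusted p = 2.44e-06), was the largest among the receptors other than Epha5. Plxnb3 took 9.02% and 9.83% of the summed plexin FPKM in the ferret, behind Plxnb2 and Plxnb1, and 0.120% and 0.128% in the mouse, where it was the lowest of 8 plexins. Mouse Plxnb3 lies on the plus strand of the X chromosome, from 73757090 to 73772514. Whether its very low mouse FPKM is a failed estimate, as that of Epha5 may be, was not tested. Plxnb3 is known from oligodendrocyte lineage cells, and of the 8 markers of that lineage 2 were called higher in the ferret. Olig2 and Cspg4 had lower values there and the remaining markers higher ones, without a call. The part of such cells in the Plxnb3 values was not tested. Plxnd1, a receptor of Sema3e, had 4.37 and 4.26 FPKM in the ferret and 6.73 and 6.71 in the mouse, and was not called.

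Class 4 semaphorins, which are transmembrane ligands of the plexin-B receptors, had a higher sum in ferret astrocytes, as deposited and after rescaling. Their 6 genes summed to 29.6 and 30.8 FPKM in the ferret and 19.1 and 19.6 in the mouse. Sema4c, a ligand of Plxnb2, accounted for most of this, with 12.0 and 12.5 FPKM against 3.31 and 3.43. It was called higher (difference in log2(FPKM + 1) 1.60, standard error 0.0666, adjusted p = 7.44e-06 by limma), a 3.63-fold difference of the means. Sema4f, at 4.43 and 4.31 against 1.30 and 1.20 FPKM, was called higher too (difference 1.26). Sema4b, at 5.98 and 6.55 against 4.79 and 4.97 FPKM, was not called, nor was Sema4d, the ligand of Plxnb1, at 3.06 and 3.05 against 5.57 and 5.95. Sema4g was not called. Sema4a stayed under 1 FPKM in all 4 libraries, at 0.0425 and 0.0436 in the ferret and 0.783 and 0.535 in the mouse, and was not called. Sema4c was the highest class 4 gene in the ferret, with 40.4% and 40.6% of the class, and the fourth in the mouse, where Sema4d held 29.1% and 30.3%.

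Of the 7 semaphorins of the other classes, 3 were called lower in ferret astrocytes and the other 4 were not called. The share of all genes called lower was 23.8%, and 7 genes are too few to set against it. The class 6 genes, transmembrane ligands of plexin-A receptors, summed to 6.43 and 5.92 FPKM in the ferret and to 36.1 and 38.8 in the mouse. Sema6d had 2.63 and 2.34 FPKM against 19.9 and 21.2, and Sema6a had 2.18 and 1.98 against 12.9 and 14.0. Both were called lower (differences -2.63 and -2.23, adjusted p = 2.39e-06 and 4.44e-06 by limma), whereas Sema6b and Sema6c stayed under 2 FPKM and were not called. In class 5, Sema5b was called lower (difference -1.16, and -0.92 after rescaling) and Sema5a was not. Sema7a, a lipid-anchored semaphorin, had 4.33 and 4.68 FPKM in the ferret and 5.80 and 5.75 in the mouse. Its difference of -0.30 turned to 0.03 after rescaling.

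As a share of all semaphorin FPKM in a library, class 3 took 43.0% and 42.3% in the ferret and 66.8% and 65.1% in the mouse. Class 4 took 39.2% and 40.5% in the ferret and 9.49% and 9.75% in the mouse, and class 6 took 8.53% and 7.78% against 17.9% and 19.3%. Classes 3 and 4 thus had similar shares in ferret astrocytes, while class 3 held most of the sum in mouse astrocytes. The ratio of summed class 3 to class 4 genes was 1.10 and 1.04 in the ferret and 7.04 and 6.68 in the mouse.

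**Figure D3:**
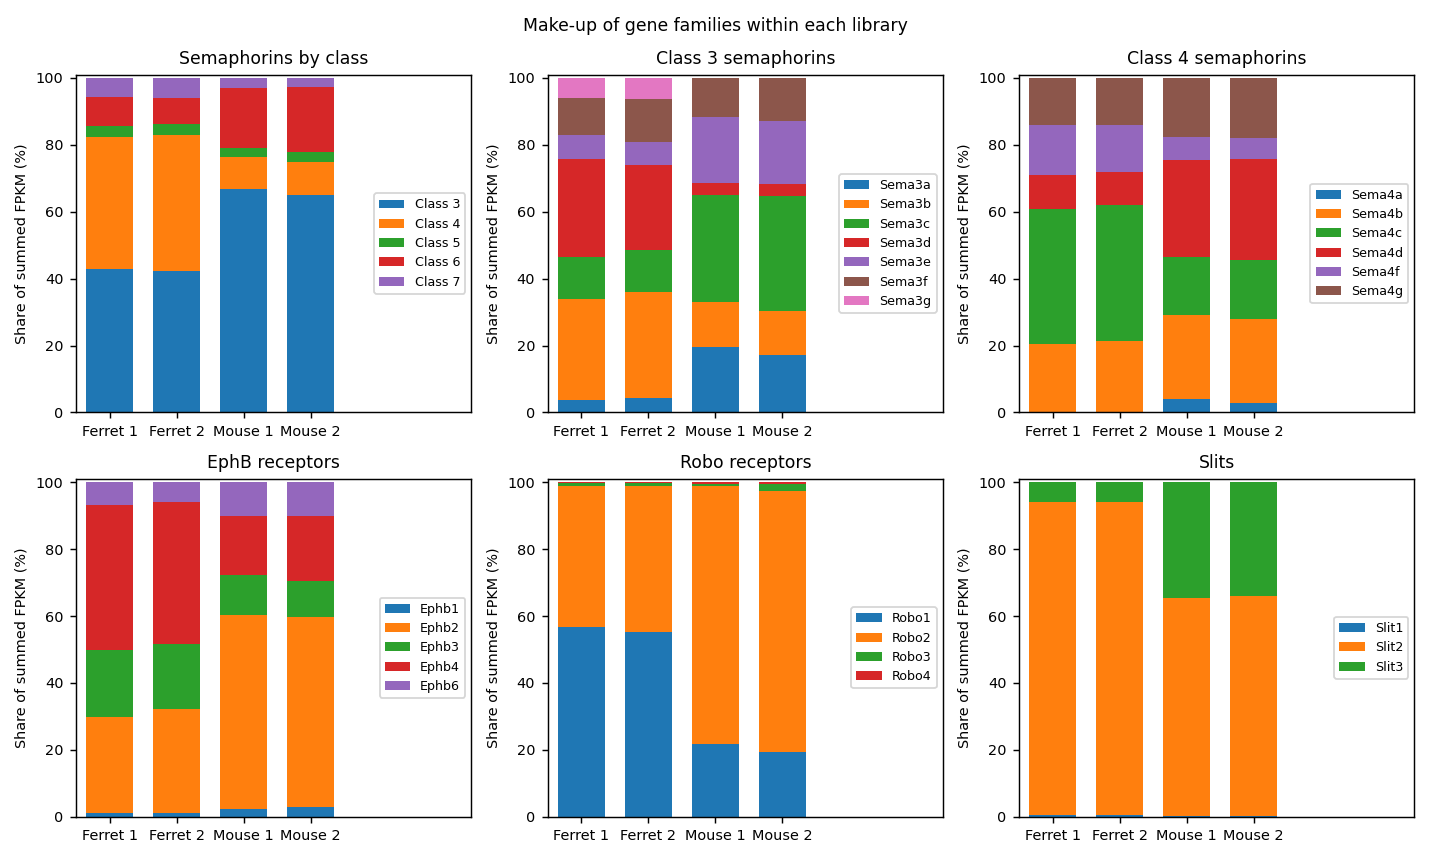
Share of the summed FPKM (percent) taken by each class of semaphorins and by each member of 5 families, in each of the 4 libraries. Duplicates have nearly the same make-up, and the leading member differs between the species in the class 3 semaphorins (Sema3b against Sema3c), the class 4 semaphorins (Sema4c against Sema4d), the EphB receptors (Ephb4 against Ephb2) and the Robo receptors (Robo1 against Robo2).

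Of 14 Eph receptors, 3 were called higher in ferret astrocytes, Epha5 with its doubtful mouse value among them, and 2 lower. Of 6 ephrins, 1 was called higher and 3 lower. Over all genes tested, 10.4% were called higher and 23.8% lower, and these families are too small to set against those shares. The EphB receptors, which bind transmembrane ephrin-B ligands, summed to 45.3 and 51.0 FPKM in the ferret and 35.5 and 38.5 in the mouse. Ephb4, the receptor of Efnb2, had 19.6 and 21.6 FPKM in the ferret and 6.26 and 7.42 in the mouse. It was called higher (difference 1.46, standard error 0.0935, adjusted p = 3.83e-05 by limma), 3.01-fold between the means. Ephb3 had 9.13 and 9.92 FPKM against 4.17 and 4.23 and was called higher at 1.02. Without ferret replicate 2 its difference was 0.96, below the limit, and after rescaling it was 1.35. Ephb2, at 12.9 and 15.8 FPKM against 20.6 and 21.9, lay lower in the ferret without a call (difference -0.54, and -0.17 after rescaling). Ephb1 and Ephb6, which lacks kinase activity, were not called. The leading EphB receptor therefore differed, since Ephb4 over Ephb2 was 1.52 and 1.36 in the ferret and 0.304 and 0.339 in the mouse.

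The ephrin-B ligands had a lower sum in ferret astrocytes, at 13.3 and 14.8 FPKM against 32 and 32.6. Efnb1 had 6.57 and 6.81 FPKM in the ferret and 19.1 and 19.0 in the mouse and was called lower (difference -1.38, adjusted p = 6.44e-06 by limma), and after quantile normalization it stood at -0.97. Efnb2, at 6.13 and 7.42 against 12.3 and 13.1 FPKM, was not called, with a difference of -0.82. Efnb3 stood between 0.521 and 0.616 FPKM in every library, with overlapping groups. Within a library, ephrin-B over EphB was 0.294 and 0.289 in the ferret and 0.902 and 0.847 in the mouse, so that the surplus of receptor over ligand transcripts was larger in the ferret.

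Among the EphA receptors, Epha4 was the leading gene of mouse astrocytes and Epha2 exceeded it in the ferret. Epha4, which binds both classes of ephrins, had 3.20 and 3.08 FPKM in the ferret and 13.0 and 12.8 in the mouse and was called lower (difference -1.74, adjusted p = 4.95e-06 by limma). Epha2 had 7.07 and 6.77 FPKM against 5.13 and 5.17 and was not called. Epha1 was called lower, from 3.27 and 3.32 FPKM in the mouse to 0.0945 and 0.123 in the ferret. Epha3, Epha6, Epha7, Epha8 and Epha10 stayed under 2 FPKM in every library and were not called. Epha2 over Epha4 was 2.21 and 2.2 in the ferret and 0.396 and 0.404 in the mouse.

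Epha5 had 17.7 and 17.3 FPKM in the 2 ferret libraries, the highest EphA receptor there, and was listed at 0.0084 and 0 FPKM in the mouse libraries. Taken as deposited, the difference was 4.20 on the log2(FPKM + 1) scale and the gene was called higher. The study's separate read counting, however, assigned reads to mouse Epha5 in both libraries, so the mouse FPKM may be a failed estimate and no fold is given. Mouse Epha5 occupies 84054761 to 84417382 of chromosome 5 (minus strand) and has 11 annotated transcripts, of which 6 are protein-coding and 5 retain an intron. Mouse Slit2 has 23, of which 10 retain an intron, and stood at 22.0 and 23.1 FPKM. Whether the annotated transcripts bear on the Epha5 value was not tested. With Epha5 left out, the EphA receptors summed to 11.9 and 11.4 FPKM in the ferret and 23.5 and 23.9 in the mouse. With it, the ferret sums were 29.6 and 28.7 FPKM, so the direction of the EphA sum rests on this gene. Without Epha5, EphB receptors made up 79.2% and 81.8% of the Eph receptor FPKM in the ferret and 60.2% and 61.7% in the mouse. Whether other genes with a mouse FPKM near 0 are affected in this way was not tested.

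The 3 ephrin-A ligands, which are lipid-anchored, were split. Efna1 had 5.42 and 7.44 FPKM in the ferret and 2.49 and 2.61 in the mouse and was called higher (difference 1.05, standard error 0.140, adjusted p = 0.000906 by limma). The ferret duplicates differed by more for this gene than for most, and without ferret replicate 2 the difference was 0.85, while without mouse replicate 1 the adjusted p was 0.0532. Efna4 (2.28 and 2.39 against 5.53 and 5.89 FPKM) and Efna5 (1.41 and 1.87 against 5.14 and 5.02 FPKM) were called lower, at -1.01 and -1.21. Rescaling brought these to -0.71 and -0.93, and Efna4 also lost its call without ferret replicate 1 (-0.99) or mouse replicate 2 (-0.97).

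In the Slit and Robo system, Slit2 stood at overlapping levels in both species as deposited, while Slit3 and Robo1 were called in opposite directions. Slit2, the most expressed ligand of ferret astrocytes, had 22.5 and 21.6 FPKM in the ferret and 22.0 and 23.1 in the mouse. The libraries overlapped, and the difference was -0.03 (95% interval -0.16 to 0.11, adjusted p = 0.647 by limma) with FPKM as deposited and 0.35 after rescaling (adjusted p = 0.00254 by limma), so its direction turned on the scaling. Slit3 had 1.45 and 1.42 FPKM in the ferret and 11.6 and 11.9 in the mouse, 8.22 times higher in the mouse (difference -2.39, standard error 0.0679, adjusted p = 2.30e-06 by limma). Slit1 stayed near 0 in all libraries. Slit3 over Slit2 was 0.0643 and 0.0654 in the ferret and 0.530 and 0.514 in the mouse.

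Robo1 had 11 and 10.7 FPKM in the ferret and 3.24 in both mouse libraries and was called higher (difference 1.48, standard error 0.0647, adjusted p = 8.86e-06 by limma). Robo2 had 8.24 and 8.52 FPKM in the ferret and 11.5 and 12.9 in the mouse and was not called (difference -0.49, and -0.13 after rescaling). Robo1 therefore led in ferret and Robo2 in mouse astrocytes, with a ratio of Robo1 to Robo2 of 1.33 and 1.26 against 0.283 and 0.250. Robo3 and the endothelial receptor Robo4 stayed under 0.5 FPKM in every library. Mouse Robo1 (72308306 to 73046095, plus strand) and Robo2 (73891839 to 74411825, minus strand) lie near each other on chromosome 16.

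**Figure D4:**
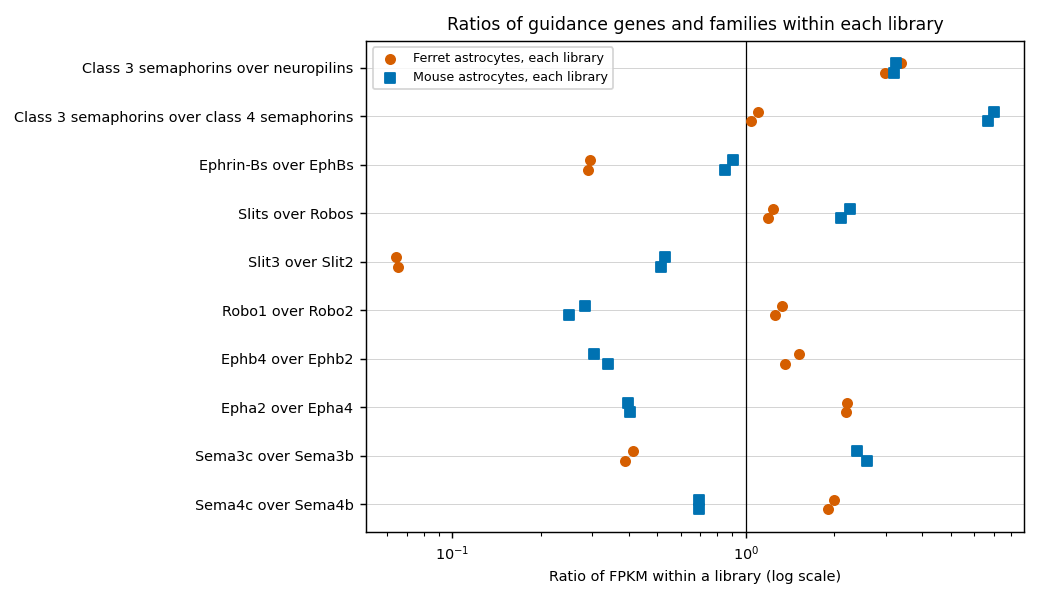
Ratios of FPKM within each library on a log axis, for pairs of genes or summed families, with ferret libraries as circles and mouse libraries as squares. The vertical line marks equal levels. The ratio of class 3 semaphorins to neuropilins overlaps between the species near 3, and the ratios of Robo1 to Robo2, Ephb4 to Ephb2, Epha2 to Epha4, Sema3c to Sema3b and Sema4c to Sema4b lie on opposite sides of the line.

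Of 3 netrins, 2 were called lower in ferret astrocytes, and the Unc5 receptors went in both directions. Over all genes 23.8% were called lower, and 3 netrins are too few to set against that share. Ntn4, a laminin-related netrin of basement membranes, had 5.14 and 4.54 FPKM in the ferret and 23.3 and 25.2 in the mouse and was called lower (difference -2.11, standard error 0.0775, adjusted p = 4.89e-06 by limma). Ntn3 was called lower as well, at 0.285 and 0.290 FPKM against 2.54 and 3.48, and Ntn5 was near 0 in all libraries. In the same ferret libraries 10 of 11 meningeal fibroblast markers and 3 of 6 endothelial markers were called lower. The endothelial markers Pecam1, Cldn5 and Kdr were not called. All 14 microglial markers and 7 of 11 astrocyte markers were called lower as well. The part of any of these cells in the netrin values was not tested.

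Unc5a, a repulsive netrin receptor, had 3.48 and 3.64 FPKM in the ferret and 0.0725 and 0.102 in the mouse, and was called higher (difference 2.07, standard error 0.0558, adjusted p = 2.05e-06 by limma). Unc5c had 1.23 and 1.16 FPKM against 5.64 and 5.32 and was called lower (difference -1.56, adjusted p = 1.08e-05 by limma). Unc5b, at 1.95 and 1.99 against 4.34 and 4.45 FPKM, was not called. Unc5d and Dcc, the attractive netrin receptor, were under 1 FPKM in all libraries, yet in both genes the ferret libraries, at 0.490 to 0.662 FPKM, stood above the mouse libraries, at 0.0344 to 0.0509. On the log2(FPKM + 1) scale these differences were 0.62 and 0.56 and no call was made. With a pseudocount of 0.1 they were 2.27 and 2.21 and both genes were called, as were 15.5% of all genes in that direction and 30.7% in the other. That pseudocount also brought calls in the lower direction for Unc5b (-1.12), Sema4a (-2.39), Sema6c (-1.27) and Plxna3 (-1.09). Mouse Unc5a lies on chromosome 13 from 54949411 to 55006018 on the plus strand. Whether the very low mouse values of Unc5a, Unc5d and Dcc are failed estimates, as that of Epha5 may be, was not tested.

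Genes that carry guidance signals inside the cell went in both directions. Of 53 listed partners of these receptors (kinases, adaptors, small GTPases and their regulators, and cytoskeletal effectors), 49 were shared by both species. Of these, 6 (12.2%) were called higher and 9 (18.4%) lower in ferret astrocytes, against 10.4% and 23.8% of all genes, and their median difference was -0.13. After rescaling 13 were higher and 7 lower, where the shares of all genes moved to 15.3% and 17.2%. The list was made with earlier results of these data known, so its shares are a description only. Dpysl2, which encodes the semaphorin effector CRMP2, had 164.5 and 162.1 FPKM in the ferret and 6.08 and 5.70 in the mouse (difference 4.58, adjusted p = 4.46e-07 by limma). Dpysl5, of the same family, had 35.2 and 35.5 FPKM against 3.45 and 3.30 (difference 3.05). Tiam2, a Rac activator, had 4.52 and 4.28 FPKM in the ferret and is listed at 0 in both mouse libraries. As with Epha5, the study's read counting assigned reads to mouse Tiam2, so its value may be a failed estimate, and without it 5 partners were called higher. Among the lower genes, Mical2, a plexin-linked actin oxidase family member, had 0.361 and 0.217 FPKM in the ferret and 9.62 and 9.37 in the mouse (difference -3.03). Nck1, an adaptor of Eph and netrin receptors, had 5.29 and 4.72 FPKM against 27.5 and 25.9, and the actin regulator Vasp had 5.31 and 5.55 against 25.2 and 23.8.

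Of 36 other guidance genes outside the symbol rule, 35 were shared, and 9 (25.7%) were called higher and 9 (25.7%) lower in ferret astrocytes, against 10.4% and 23.8% of all genes. Their median difference was -0.20. This list too was made with earlier results of these data known, so its shares are a description only. After rescaling the counts were 9 and 9 too, against 15.3% and 17.2% of all genes. L1cam, an adhesion molecule of growing axons that forms part of the Sema3a receptor, had 17.1 and 19.6 FPKM in the ferret and 0.469 and 0.436 in the mouse (difference 3.73, adjusted p = 1.52e-06 by limma). Draxin, a secreted repellent that binds Dcc and netrin, had 15.0 and 18.3 FPKM against 0.435 and 0.509 (difference 3.58). Flrt3, a ligand of Unc5 receptors, had 15.0 and 13.7 FPKM against 1.37 and 1.40. Its relative Flrt2 went the other way, with 0.756 and 0.521 FPKM in the ferret and 16.1 and 15.2 in the mouse (difference -3.35). The chemokine Cxcl12 had 0.00805 and 0.00944 FPKM in the ferret and 13.3 and 12.3 in the mouse (difference -3.77). Rgma, a repulsive ligand of the Dcc relative Neo1, fell by 2.62 on the log2(FPKM + 1) scale, from 21.7 and 23.6 FPKM in the mouse to 2.79 and 2.92 in the ferret.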

How the data were processed

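RNA-seq libraries of cultured ferret and mouse astrocytes were used, with 2 libraries in each group. Per the labels and methods, the authors aligned reads with STAR (version 2.7.0f) to MusPutFur1.0 for the ferret and GRCm38 for the mouse, and deposited FPKM for each gene from Cufflinks (version 2.2.1), without pooling replicates. FPKM carries no read counts, so the depth of the libraries is not known from it and low values have no interval. The paper states that its supplement gives read counts. They were drawn on here for Epha5 and Tiam2 only. Each species was quantified on its own gene models.

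Symbols were joined in upper case. Each of the 65 genes had a single row in both species. The FPKM were set to log2(FPKM + 1) and all 12879 shared symbols with a value above 0 in any library were fitted with limma (version 3.58.1 in R 4.3.3, trended empirical Bayes, Benjamini-Hochberg adjustment). No further filter on low values was used, so all 65 genes were tested. Simulated data with known changes served to test the fit. With 2 libraries a group, no exact two-sided permutation p can be smaller than 0.333. The labels do not say whether duplicates came from separate cultures, so p-values may measure technical spread only.

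Genes with a mean of at least 5 FPKM in either species were named, together with those at 0 in a library of one species and at least 1 FPKM in the other. From the 2 pathway lists the 3 called genes with the largest difference in each direction were named. Genes and ratios outside this rule were picked after their values were seen. The members, lists and alternatives were chosen with earlier results of these data known. Alternatives were a pseudocount of 0.1, filters at a mean FPKM of 1, rescaling of FPKM so that the 4 library sums were equal, quantile normalization, summed rows, no trend, the replicate number as a block, and each library left out. Leaving out Epha5 or Tiam2 was added after the data were seen. Coordinates in the mouse came from GENCODE (GRCm38), in another release than the authors used. No sequences were used. A marker of the oligodendrocyte lineage is not reported here.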

Additional observations from a re-analysis of the deposited data

How the results depend on the processing

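The counts of members called higher (10) and lower (22) stayed within 1.5 times under every alternative, at 8 to 12 and 16 to 26, and leaving out each library gave 8 to 10 higher and 19 to 22 lower. Without Epha5 the counts were 9 and 22. Intracellular partners called higher rose from 6 to 13 both after rescaling and after quantile normalization (7 and 6 lower), and all genes called higher from 1336 to 2110 after quantile normalization (1967 higher and 2215 lower after rescaling, against 3069 lower as deposited). Directions turned for Slit2 (0.35 after rescaling, 0.36 after quantile normalization, -0.06 to 0.01 with a library left out), Sema7a (0.03 and 0.10), Ephb6 (0.08 and 0.21), Epha3 (0 after quantile normalization), Efnb3 (-0.01 without ferret replicate 1) and Robo3 (-0.27 to 0.04 with a library left out), none of them called. The log2 ratio of summed FPKM turned for ephrin-A ligands (0.03 after rescaling and 0.16 after quantile normalization), Sema7a (0.03 and 0.12), the netrin receptors with Dcc (0.04 and 0.21), Unc5 receptors (0.11 after quantile normalization) and EphA receptors without Epha5 (-1.03). The cause of these changes was not tested. With the replicate number as a block, 10 members were higher and 22 lower, as without it. The numbers do not pair libraries of different species, and the deviations of same-numbered libraries had a correlation of 0.0132 over 9832 genes. FPKM does not give the depth behind low values, and the error of members under 1 FPKM was not estimated from read counts.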

Other observations

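The mouse genes of these families without a match in the ferret values had the following levels. Ntn1, the netrin best known as an axon attractant, had 6.73 and 7.19 FPKM in the mouse libraries. Efna3 had 2.14 and 2.79 FPKM, Plxnc1, the receptor of Sema7a, had 2.55 and 2.27 FPKM, and Efna2 stayed under 1 FPKM. The ferret levels of these 4 genes were not analysed here, so the sums of netrins, ephrin-A ligands and plexins leave them out in both species.

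Across the 64 members other than Epha5, the ranks of mean log2(FPKM + 1) in the ferret and the mouse had a Spearman correlation of 0.64, a description over genes that share libraries and are not independent. Of the 10 most expressed members of each species, 4 were common to both, namely Plxnb2, Slit2, Ephb2 and Plxnb1.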
